A study of Glycine max with 15 samples.

Results

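A group of 250 soybean genes was listed at 0 FPKM in mock-treated control seedlings and at 1 FPKM or more in at least 1 of 4 treated groups. FPKM is a fragment count corrected for the length of the transcript and the depth of the library. Of 54175 gene IDs, 10494 were listed at 0 in control in each of the 4 deposited tables, and 400 of those reached 1 FPKM in a treated group. The 250 with the highest treated value were kept. The last gene inside this limit had a highest value of 1.84 FPKM, and the first gene outside it had 1.81 FPKM. The control and treated values chose the genes, so the treated levels are given as a description with no test.

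The plants were Glycine max cultivar Williams 82, taken as whole seedlings at 10 days of age, at the first vegetative stage. There were 15 libraries in 5 groups of 3. Control plants were mock-treated, and each of the 4 treated groups received 5 mM propiconazole (Pcz), in 1 group as the sole agent. The group Pcz-lowBL received the inhibitor together with 10 nM brassinolide (BL). The groups Pcz-BL-1h and Pcz-BL-8h received the inhibitor and 1 mM BL, for 1 h and for 8 h. The mM units are as the labels give them, look high for these agents and may be in error, and no group received Pcz followed by a mock addition. Effects of BL and of the addition itself cannot be told apart in the 1 h and 8 h groups. Each table holds 1 pooled value per group, so no spread between libraries can be shown. The labels do not state that libraries of the same group were made from different plants.

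Brassinosteroids are plant steroid hormones that promote cell elongation, and brassinolide is the most active of them. They are perceived at the cell surface by a receptor kinase, and the signal ends on transcription factors that raise some genes and repress others. Propiconazole is a triazole that inhibits brassinosteroid synthesis, and it is also used as a fungicide. Treatment with the inhibitor and then with the hormone is a usual way to separate lack of the hormone from the response to its return. The gene IDs could not be paired with names, so roles of single genes are not given.

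Sheet names and column headers of the tables conflict in 3 of 4 cases. Tables are named here after their sheets: "Pcz alone" is the sheet Pcz, "low BL" the sheet Pcz-BL, "1 h" the sheet Pcz-BL-1h and "8 h" the sheet Pcz-BL-8h. By column header, the low-BL table would hold the 1 h group, the 1 h table the 8 h group and the 8 h table a group headed Pcz-BL. The treatment behind those 3 tables is therefore uncertain in each statement that follows, and the table for Pcz alone is not affected.

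Most of the 250 genes reached 1 FPKM in the 1 h table. There, 176 of them (70.4%) were at 1 FPKM or more, against 79 (31.6%) at 8 h, 45 (18%) with low BL and 44 (17.6%) with Pcz alone. The background is the share of all genes listed at 0 in the control column of the same table that reached 1 FPKM there. It was 2.55% at 1 h, 0.934% at 8 h, 0.657% with low BL and 0.676% with Pcz alone. These shares stem from the same contrasts that chose the genes. At 10 FPKM or more there were 40 of the 250 at 1 h, 16 at 8 h, 4 with low BL and 10 with Pcz alone. None of the 4 with low BL had q of 0.05 or less in the authors' deposited table. They include Glyma19g06340 and Glyma19g06370, whose values are in doubt because Cuffdiff marks their loci as holding too many fragments to process. Those genes also count among the 10 with Pcz alone, as do Glyma18g35080, not tested there, and Glyma07g12760 (authors' q = 0.192). The rest of the 10 had q of 0.05 or less. At 1 h, Glyma12g08320 (authors' q = 0.316) and Glyma14g07811 (authors' q = 0.118) count without such a q. So do Glyma14g05420, Glyma13g06250 and Glyma20g38410, not tested there. At 8 h, Glyma13g25520 (authors' q = 0.186) and Glyma18g47530 (authors' q = 0.252) count without such a q. So do Glyma12g08320 and Glyma14g11580, not tested there. The median over the 250 was 2.67 FPKM at 1 h, 0.0975 at 8 h, 0.0182 with low BL and 0 with Pcz alone.

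**Figure D1:**
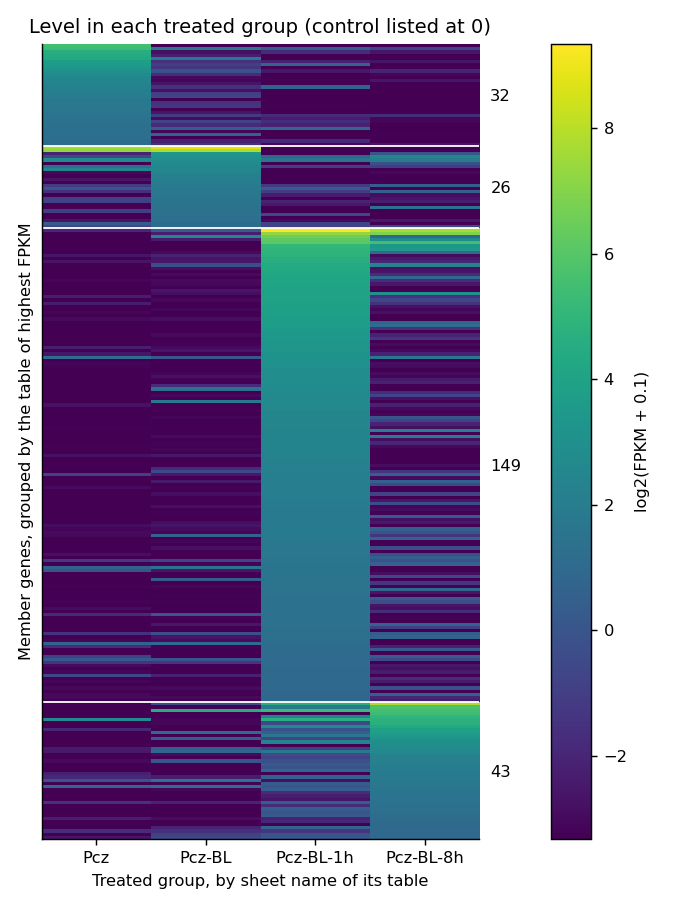
Heat map of the 250 genes (rows) in the 4 treated groups (columns, by sheet name), coloured by log2(FPKM + 0.1) and grouped by the table of the highest value, with the number of genes at the right. The block of 149 genes highest at 1 h is the tallest, and most of its rows are dark with Pcz alone and low BL.

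Genes that went the other way, from 1 FPKM or more in control to 0 in the treated group, were counted in the same tables. At 1 h, 268 genes went from 0 to 1 FPKM or more and 65 went the other way. The order was turned with Pcz alone, with 71 from 0 and 139 to 0, and at 8 h, with 98 from 0 and 135 to 0. The low-BL table had 69 from 0 and 49 to 0. Only the table for Pcz alone holds genes of status LOWDATA, given to loci too complex or too shallowly covered to test. Of these 181 genes, 64 are listed at 0 treated and 73 at 0 in control, and such a 0 may be a failed estimate. Their part in the counts of 71 and 139 was not tested. The 135 at 8 h include Glyma07g01730, at 2045 FPKM in control, whose 0 is in doubt because its locus had too many fragments to process. The number of genes listed at 0 also differed between treated groups. It was 8209 at 1 h, 9668 with low BL, 10690 at 8 h and 11174 with Pcz alone, against 10495 in the control columns of the tables other than Pcz alone and 10509 in that of Pcz alone. A deeper group of libraries lists fewer genes at 0, and depth is unknown here, so the part of depth in these counts was not tested.

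The authors' Cuffdiff test was run on only part of the 250, mostly because the program skips loci with few fragments (status NOTEST). In the table for Pcz alone, 7 members carry the status LOWDATA, given to loci too complex or too shallowly covered to test. Of these 7, 5 are listed at 0 there, and such a 0 may be a failed estimate. In the authors' deposited 1 h table, 162 of them were tested and 151 had q of 0.05 or less. At 8 h 68 of 76 tested were called, with low BL 33 of 42 and with Pcz alone 28 of 32, in the authors' deposited tables. Over all tested genes of the authors' deposited tables, the share called higher than control was 25.6% at 1 h, 25.8% at 8 h, 13.4% with low BL and 24.9% with Pcz alone. Among tested genes listed at 0 in control, the authors' deposited tables called 94.5%, 93.1%, 83.3% and 81.5% in the same order of tables. The rule used these contrasts, and a gene at 0 in control is tested only where the treated group supplies enough fragments, so nothing is read from the higher shares. Of the 250, 210 were called in the table of their highest value in the authors' deposited tables, and 22 were tested in no table.

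For most of the set, a single table held a value of 1 FPKM or more. In all, 171 of the 250 genes reached 1 FPKM in 1 table, 65 in 2 tables, 13 in 3 tables and 1 in all 4. The largest class, 111 genes, reached 1 FPKM at 1 h and in no other table. A further 44 did so at 1 h and 8 h, 26 in the table for Pcz alone and no other, 19 at 8 h only, 15 with low BL only, and 7 in the tables for Pcz alone and low BL. Seen as pairs, 174 genes reached 1 FPKM at 1 h or 8 h but in neither of the other tables, 48 the other way round, and 28 in both pairs. At least 90% of a gene's summed FPKM over the 4 tables lay in 1 table for 138 genes, 97 of them at 1 h. Reaching 1 FPKM in a single table does not mean 0 elsewhere: of the 111 genes, 19 were listed at 0 in each of the other 3 treated groups.

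**Figure D2:**
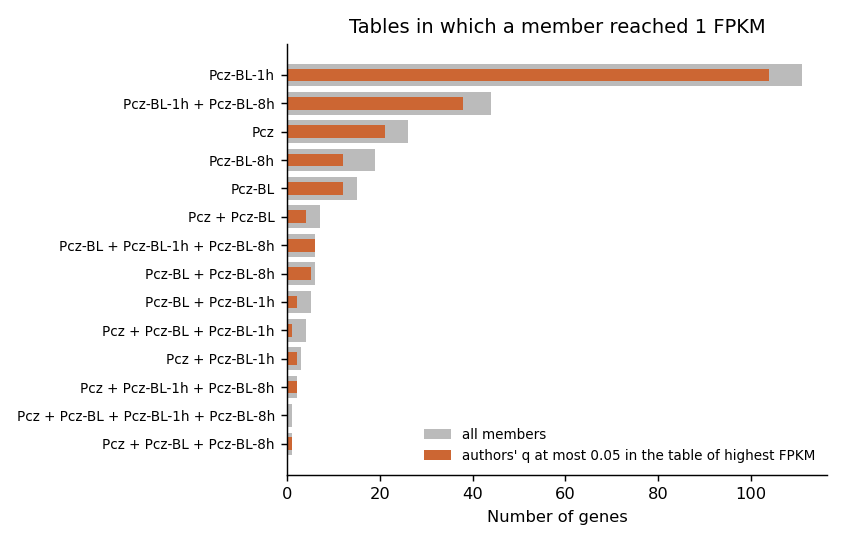
Number of the 250 genes (horizontal axis) by the tables in which they reached 1 FPKM (vertical axis), in grey, with those called by the authors at q of 0.05 or less in the table of their highest value in orange. The bar for 1 h alone holds 111 genes, of which 104 were called.

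The gene with the highest level was Glyma19g41920 (chromosome 19, 48053926 to 48055028, genome build not given in the sources used here). It stood at 647 FPKM at 1 h, 204 at 8 h, 1.11 with low BL and 0.172 with Pcz alone. Its level was thus high in the 1 h and 8 h tables and low in those for low BL and Pcz alone. The authors' deposited tables called it at 1 h (q = 0.000187), 8 h (q = 0.000181) and low BL (q = 0.000314). A q of this size is the smallest that each of those tables holds, since the deposited p-value has a lowest entry of 5e-05.

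Glyma03g39341 (chromosome 3, 45463361 to 45464137) had a similar pattern, with 158 FPKM at 1 h, 120 at 8 h, 0.10 with low BL and 0 with Pcz alone. Glyma15g38141 (chromosome 15, 44217517 to 44219620) was higher at 1 h, at 73.1 FPKM, than at 8 h, at 6.61 FPKM, and was at 0.0896 with low BL and 0 with Pcz alone. Both genes had the smallest q at 1 h and at 8 h in the authors' deposited tables. Glyma10g35080 (chromosome 10, 43275930 to 43276149) peaked at 96.9 FPKM at 1 h, with 1.93 at 8 h, 5.34 with low BL and 0 with Pcz alone. Its locus spans 219 bases, so few fragments make a high FPKM. It was called at 1 h (q = 0.000187) and with low BL (q = 0.00601) in the authors' deposited tables, and was not tested in the other tables.

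Some genes were highest at 8 h. Glyma03g04996 (chromosome 3, 5222476 to 5222701) had 217 FPKM at 8 h, 24.2 at 1 h, 0.623 with low BL and 0 with Pcz alone. Glyma14g38330 (chromosome 14, 47458690 to 47459409) had 55.2 FPKM at 8 h, 3.10 at 1 h and 0 with low BL and Pcz alone. Each was called at the smallest q at 1 h and at 8 h in the authors' deposited tables. Glyma06g20380 (chromosome 6, 16800245 to 16802265), chosen after its values were seen, had 26.2 FPKM at 8 h, 0.627 at 1 h, 0.0167 with low BL and 0 with Pcz alone. Tables were normalised separately, and the control level of the 8 h table was 0.838 times that of Pcz alone over genes at 1 FPKM or more in each control column. The same ratio was 1.01 for low BL and 1.01 for 1 h. These ratios are small beside the differences between 1 h and 8 h of the genes just named. They are not small beside those of Glyma03g39341, Glyma09g16100 or Glyma14g07811.

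The genes at 1 FPKM or more at 1 h were mostly low at 8 h. Of the 176, 53 were at 1 FPKM or more at 8 h, 79 were above 0 but under 1, and 44 were listed at 0. Their median was 4.21 FPKM at 1 h and 0.126 at 8 h, and 110 of the 176 stood at 8 h below 1/10 of their level at 1 h. The groups are separate sets of libraries, so no plant was followed over time. Choosing genes by their level at 1 h favours lower values in the other table. Looked up the other way, 53 of the 79 genes at 1 FPKM or more at 8 h (67.1%) were also there at 1 h, against 30.1% for the first direction. Both shares use the same 53 genes, so they differ only through the sizes of the sets, 79 and 176. Among all members the shares at 1 FPKM or more were 70.4% at 1 h and 31.6% at 8 h. Neither direction thus exceeded the share of all members in the table looked up. Of the 53 genes in both, 31 were lower and 22 higher at 8 h, and with tables scaled to the same control level 22 were still higher. At least a 2-fold difference was seen in 19 lower and 14 higher genes.

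Examples of genes at 1 FPKM or more at 1 h and in no other table, chosen after their values were seen, are the 3 with the highest level in that class. Glyma13g27110 (chromosome 13, 30279920 to 30282097) was at 29.4 FPKM at 1 h, 0.0280 at 8 h, 0.141 with low BL and 0.0626 with Pcz alone. Glyma11g21390 (chromosome 11, 18402303 to 18404364) was at 25.3 FPKM at 1 h, 0.0913 at 8 h, 0.0595 with low BL and 0 with Pcz alone. Glyma11g12810 (chromosome 11, 9158083 to 9158812) was at 23.9 FPKM at 1 h, 0.154 at 8 h, 0.0700 with low BL and 0.0576 with Pcz alone. None of these 3 loci overlaps another, and each had q = 0.000187 in the authors' deposited 1 h table.

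**Figure D3:**
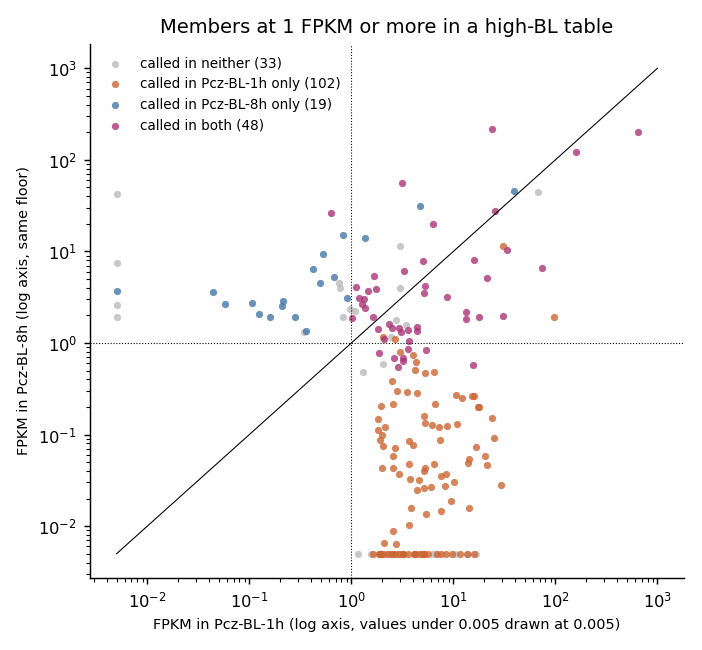
FPKM at 8 h (vertical, log axis) against FPKM at 1 h (horizontal, log axis) for the 202 genes at 1 FPKM or more in either table, with values under 0.005 drawn at 0.005, dotted lines at 1 FPKM and a solid line of equal level. Colours give the authors' calls at q of 0.05 or less, with 102 genes called at 1 h alone, 19 at 8 h alone, 48 in both and 33 in neither. A gene that was not tested in a table counts as not called there. Most points lie below the line of equal level.

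Fewer genes were at 1 FPKM or more with Pcz alone. Of these 44 genes, 26 reached that level in no other table. Of the 44, 13 were also at 1 FPKM or more with low BL, 10 at 1 h and 4 at 8 h, and 27 were listed at 0 at 8 h. Their median was 3.61 FPKM with Pcz alone and 0.281 with low BL. The 45 genes chosen by their low-BL level had a median of 2.87 FPKM there and 0.172 with Pcz alone, so the lower value lay in the table not used for the choice in both directions. Glyma06g08070 (chromosome 6, 5945539 to 5945935) had 41.1 FPKM with Pcz alone, 3.24 with low BL, 1.31 at 1 h and 0.484 at 8 h, and was called in the authors' deposited tables for Pcz alone (q = 0.000188) and low BL (q = 0.00284). It was low in each BL table beside its level with Pcz alone.

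Some other genes at 1 FPKM or more with Pcz alone had less signal in the BL tables. Glyma03g04960 (chromosome 3, 5147539 to 5149505) had 23.8 FPKM with Pcz alone, 0.0427 with low BL, 0.192 at 1 h and 0.0696 at 8 h. Glyma11g33936 (chromosome 11, 35785840 to 35786910) had 22.0 FPKM with Pcz alone, 0.112 with low BL and 0 in the other tables. Both were named after their values were seen, and both had q = 0.000188 in the authors' deposited table for Pcz alone. Glyma18g35080 (chromosome 18, 41089103 to 41089214) was listed at 45.9 FPKM with Pcz alone and at 0 in the other 3, but its locus spans 111 bases and no table tested it.

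The low-BL table held a like number. Of its 45 genes at 1 FPKM or more, 16 were also there at 1 h, 14 at 8 h and 13 with Pcz alone. Glyma18g03745 (chromosome 18, 2558175 to 2558852) had 8.40 FPKM with low BL, 5.38 at 8 h, 1.68 at 1 h and 0.577 with Pcz alone, and was called in the authors' deposited tables other than Pcz alone (q from 0.000181 to 0.000314). It was named after its values were seen, as the highest gene of low BL with a q of 0.05 or less. Glyma01g32460 (chromosome 1, 44035709 to 44042969) had 10.1 FPKM with low BL, 0.961 at 8 h, 0.135 with Pcz alone (status LOWDATA) and 0 at 1 h. Its locus overlaps that of another gene. In the authors' deposited tables it was tested with low BL (q = 0.309) and at 8 h (q = 0.287) and called in neither. Glyma14g07811 (chromosome 14, 5883155 to 5883281), whose locus spans 126 bases, had 46.1 FPKM at 8 h, 39.0 at 1 h, 23.2 with low BL and 0 with Pcz alone. The authors' deposited tables called it at 8 h (q = 0.0479) but not at 1 h (q = 0.118) or low BL (q = 0.224).

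One gene reached 1 FPKM in all 4 treated groups. Glyma10g28380 (chromosome 10, 37284405 to 37285368) had 7.92 FPKM with low BL, 6.29 with Pcz alone, 3.96 at 8 h and 3.01 at 1 h. It was tested in the authors' deposited low-BL table, where q was 0.223, and in no other.

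The values of 2 members are in doubt. Glyma19g06340 (chromosome 19, 7216939 to 7218417) was listed at 145 FPKM with Pcz alone, 215 with low BL and 0 at 1 h and 8 h. Glyma19g06370 (chromosome 19, 7281535 to 7282880) was listed at 193 FPKM with Pcz alone, 423 with low BL and 0 in the other 2. Both carry the status HIDATA in all 4 tables, which Cuffdiff gives to loci with too many fragments to process. One other gene has this status: Glyma07g01730 (chromosome 7, 1142812 to 1144391) was at 3647, 2661 and 4553 FPKM with Pcz alone, low BL and 1 h with status OK, and is listed at 0 treated FPKM at 8 h with status HIDATA. A 0 beside this status can therefore stand in the place of a very abundant transcript, and the 0 in control of both members is not read as absence.

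A locus of another gene overlapped 19 of the 247 members that lie on chromosomes (7.69%, against 6.40% of all genes). Of these 19, 17 were tested in the table of their highest value, and 3 were called and 14 not in the authors' deposited tables. Of the 228 members that overlapped no other locus, 207 were tested there, 204 were called and 3 were not. Among members tested in the table of their highest value, the highest uncalled gene was Glyma12g08320 (chromosome 12, 6066400 to 6068563), with 67.8 FPKM at 1 h, 44.7 at 8 h, 0 with low BL and 0 with Pcz alone, the last with status LOWDATA. Its q was 0.316 in the authors' deposited 1 h table, and it was not tested at 8 h. Strand use in the counting is not given in the sources used here, so the levels of members that overlap another gene are uncertain.

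The loci of the 250 genes were short. Their median span was 1076 bases (introns included), against 3228 for all genes, 1541 for the 10494 genes at 0 in control and 4133 for genes at 1 FPKM or more in each control column. Spans under 1000 bases made up 48.4% of the 250, 33.1% of the genes at 0 in control and 12.4% of all genes. The rule favours short loci, since fewer fragments bring a short transcript to 1 FPKM. The 21 members with status NOTEST in the table of their highest value had a median span of 189 bases. One of them was Glyma14g11580 (chromosome 14, 10141387 to 10141578), at 42.0 FPKM at 8 h and listed at 0 in the other 3 treated groups. The 210 members called in the table of their highest value had a median span of 1190 bases, and 109 of them spanned 1000 bases or more and overlapped no other locus.

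**Figure D4:**
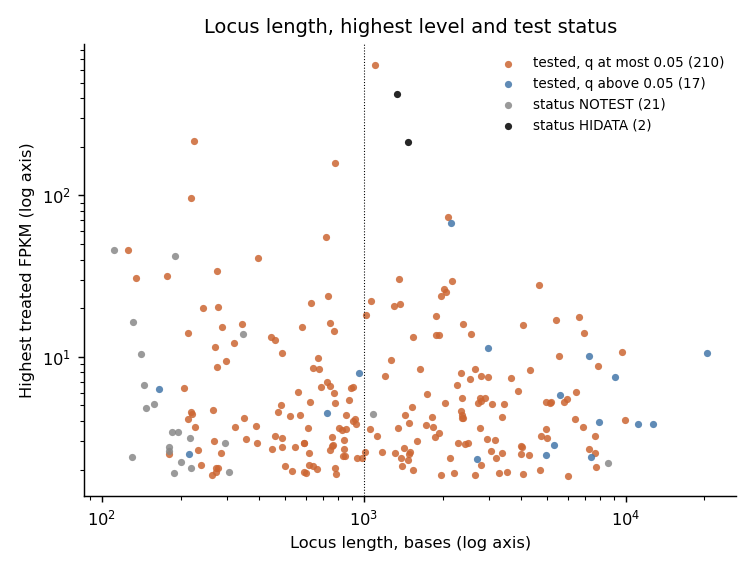
Highest treated FPKM of each of the 250 genes (vertical, log axis) against the span of its locus in bases (horizontal, log axis), coloured by the authors' test in the table of that value, with a dotted line at 1000 bases. The 21 untested genes (grey) lie mostly at the left, and the 17 tested but not called (blue) mostly at the right.

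The members lay on all 20 chromosomes, with 3 more on unplaced scaffolds. They numbered from 8 (chromosomes 4 and 7) to 19 (chromosome 13). Per 1000 genes this was 4.58 over the genome, with the lowest density on chromosome 7 (2.99) and the highest on chromosome 12 (6.89). On chromosome 13, 18 of the 19 members reached 1 FPKM at 1 h, and on chromosome 10, 15 of 17 did. The lowest shares were 3 of 8 on chromosome 7 and 5 of 11 on chromosomes 2 and 19. No test was made of these densities, since genes are not replicates.

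**Figure D5:**
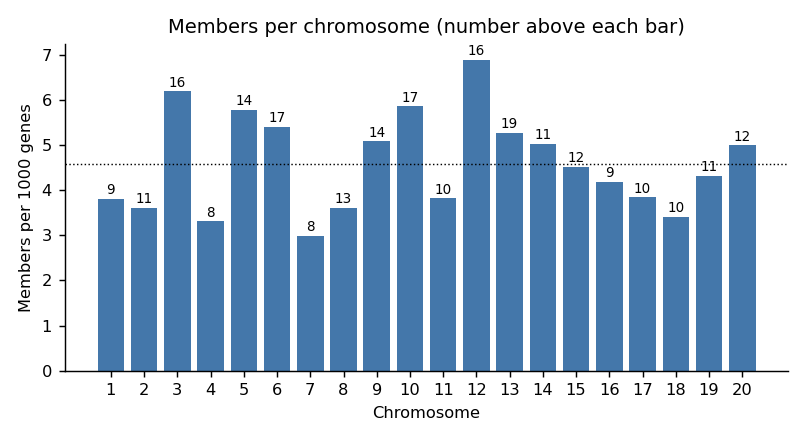
Members per 1000 genes (vertical axis) on each of the 20 chromosomes (horizontal axis), with the number of members above each bar and the genome value of 4.58 as a dotted line. Bars range from 2.99 on chromosome 7 to 6.89 on chromosome 12.

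Gene density around the members was close to that around all genes. A member had a median of 95 other genes within 500 kb on each side, against 97 for all genes, 72 for genes at 0 in control and 102 for genes at 1 FPKM or more in each control column. Of the members, 29.6% lay in the central part of their chromosome (25% to 75% of its length), against 24.4% of all genes and 35.1% of genes at 0 in control. A gene directly beside a member was called higher in the authors' deposited 1 h table for 83 of the 173 chromosomal members at 1 FPKM or more there (48.0%), against 31.4% for any gene. The same shares were 41.0% and 30.0% at 8 h, 28.9% and 16.4% with low BL, and 38.6% and 28.3% with Pcz alone. The share was above that of all genes in each of the 4 authors' deposited tables. Neighbours that are members themselves, or that overlap the member, were not left out. Members stood next to each other in 10 places with 21 genes. Where such a neighbour was called in the same table, the higher share follows in part from the choice of members. The size of that part was not tested.

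Members stood next to each other in gene order in 10 places, which held 21 genes. In 8 of the 10 places all neighbours had their highest value at 1 h, as did 149 of all 250 members. In the other 2 both neighbours were listed highest with low BL, but one of these is the HIDATA pair, whose 0 entries are in doubt, and the other is a pair of IDs with the same coordinates. The longest run had 3 genes within 14.3 kb of chromosome 10. Glyma10g28330 (37240017 to 37240284) had 4.71 FPKM at 1 h and 0 in the other 3 treated groups. Glyma10g28341 (37242485 to 37242749) had 1.86 FPKM at 1 h and 0 in the other 3. Glyma10g28350 (37253709 to 37254325) had 2.54 FPKM at 1 h, 0.904 with low BL, 0.194 with Pcz alone and 0 at 8 h. Glyma10g28380, the gene at 1 FPKM or more in all 4 groups, lies on the same stretch of the chromosome but was highest with low BL.

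The other 9 places held pairs. The pair with the highest values was the one of status HIDATA on chromosome 19, followed by a pair on chromosome 5. There Glyma05g04380 (3559577 to 3560490) had 3.996 FPKM at 1 h and 0.736 at 8 h, and Glyma05g04390 (3580906 to 3581924) had 18.0 and 0.201 FPKM, while low BL and Pcz alone held at most 0.0269. Both genes were thus higher at 1 h than in any other treated group. The remaining pairs tied in size with these and are given because of that tie.

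On chromosome 12, Glyma12g06101 and Glyma12g06111 lay within 7.32 kb, at 15.9 and 11.5 FPKM at 1 h and at 0.266 and 0 at 8 h. On chromosome 13, Glyma13g33148 and Glyma13g33156 lay within 6.12 kb, at 9.76 and 15.3 FPKM at 1 h and at 0 and 0.266 at 8 h. On chromosome 17, Glyma17g14860 and Glyma17g14880 lay within 9.72 kb, at 3.64 and 9.54 FPKM at 1 h and at 0.0853 and 0.0189 at 8 h. In these 3 pairs the level at 1 h stood far above that at 8 h for both genes.

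The same held for Glyma15g39510 and Glyma15g39515, at 6.63 and 5.28 FPKM at 1 h and at 0.213 and 0.135 at 8 h. It held also for Glyma19g35520 and Glyma19g35530, at 6.40 and 5.43 FPKM at 1 h and at 0.0475 and 0.840 at 8 h. The locus of Glyma15g39515 overlaps that of another gene, so its level is uncertain. Glyma09g16090 and Glyma09g16100 differed, since both were above 1 FPKM in both groups, at 5.17 and 5.22 FPKM at 1 h and at 3.55 and 4.19 at 8 h. In the remaining pair, Glyma03g28611 and Glyma03g28620 had 5.57 and 4.33 FPKM with low BL and share 1 deposited locus (chromosome 3, 36551765 to 36554137), so their fragments may have been split between them.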

How the data were processed

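The authors deposited 4 Cuffdiff gene tables, per the file headers, each with 1 pooled FPKM for control and 1 for a treated group. The authors also deposited a p-value and a q-value per gene, and 4 short lists of genes with a log2 fold change, which held 0 of the 250 genes. Names of the aligner, the program versions and the genome build were not given in the sources used here. FPKM pooled over libraries keep no depth, so no interval could be given, and 0 columns of per-sample values were left aside. Tables were assigned by sheet name. A gene was called at q of 0.05 or less with status OK and a treated FPKM above control. Of the IDs, 0 matched the 59048 genes of the RefSeq table (Glycine_max_v4.0), so no gene could be named and no sequence is shown. No test was made of the chosen contrasts.

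Loci were ordered by start on 20 chromosomes, leaving out 258 scaffold IDs, and coordinates are as deposited. Selection and neighbour search were tested on simulated data. Named genes were the 12 with the highest value, the 4 highest per table, those at 1 FPKM or more in all 4 tables and those of the 3 largest groups of neighbours. Pairs that tied for the third place in size were ordered by their highest FPKM. Members, lists and alternatives were chosen with earlier results of these data known. Computations used Python 3.11.15, pandas 2.3.3 and NumPy 2.4.6.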

Additional observations from a re-analysis of the deposited data

How the results depend on the processing

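Of 62 alternative values for 15 counts and shares, 39 lay within 1.5 times the reported one or, for a share, within its 95% binomial interval. The number of genes that met the rule, 400, became 673 with a minimum of 0.5 FPKM, 233 with 2 FPKM and 647 when control under 0.05 FPKM counted as 0. Named by column header, the counts at 1 FPKM or more moved to 79 for low BL, 45 for 1 h and 176 for 8 h, which follows from the exchange of names. With a minimum of 2 FPKM, the 8 h table held 52. Over all 400 genes the counts were 69 with Pcz alone, 68 with low BL and 268 at 1 h. With loci of 1000 bases or more they were 23 with Pcz alone, 16 with low BL, 97 at 1 h and 30 at 8 h. The last 2 settings, those without HIDATA genes or overlapping loci and that with tested genes alone were chosen after seeing the data. Genes going to 0 numbered 250, 102, 112 and 231 with Pcz alone, with low BL, at 1 h and at 8 h at a minimum of 0.5 FPKM, and 75, 20, 32 and 58 at 2 FPKM. Spans under 500 bases made up 26.8% of members, outside the interval of the share under 1000 bases. A lower limit can only lower this share, and the interval takes genes as independent draws, so nothing is read from it. Calls by the authors stayed within 1.5 times under q of 0.01 and under unadjusted p of 0.05. No paired analysis was possible because the deposited tables hold 1 pooled value per group. Leaving out each replicate was not run for the same reason. Another pseudocount was not run, since no count or share given here uses log values.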
